A study of Mus musculus with 15 samples.

Results

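PACAP, the pituitary adenylate cyclase activating polypeptide, and PAC1, its own receptor, were followed in large sensory neurons of mouse dorsal root ganglia through their genes, Adcyap1 (Entrez gene 11516) and Adcyap1r1 (Entrez gene 11517). They are 2 of 19938 genes that the arrays measured under a single gene symbol, and each was read by 1 probe set. The pair was picked on earlier results of the same arrays, in which Adcyap1 was higher in skin than in muscle neurons after saline and higher in skin neurons after inflammation. The saline muscle arrays were thus part of the choice as well as the paw arrays, and every comparison of Adcyap1 is given as a description, with no test. Adcyap1r1 was taken along as the receptor of the peptide.

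PACAP is a neuropeptide of the secretin, glucagon and vasoactive intestinal peptide (VIP) family. It is cut from a larger precursor by prohormone convertases. PAC1 is a G protein-coupled receptor that prefers PACAP to VIP and raises cyclic AMP through adenylyl cyclase and inositol phosphates through phospholipase C, while VPAC1 and VPAC2, the products of Vipr1 and Vipr2, bind both peptides about equally. In sensory ganglia PACAP is known mainly from small peptidergic pain-sensing neurons that also make calcitonin gene-related peptide (CGRP) and substance P, and its gene is known to rise after nerve injury.

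The arrays cover 5 groups of 3 biological replicates, all from transgenic C57BL/6 mice that carry green fluorescent protein under the CGRP promoter. The labels give no age and do not say whether animals were pooled. Saline paw and CFA paw held CGRP-positive neurons projecting to skin, from mice given saline or complete Freund's adjuvant (CFA, an inflammatory emulsion) in the paw. Saline muscle, CFA muscle and acid muscle held CGRP-negative neurons projecting to muscle, from mice given saline, CFA or acid in the muscle. All neurons came from lumbar ganglia 2 to 5, exceeded 26.9 µm and had taken up a retrograde tracer placed in the gastrocnemius muscle or the saphenous nerve 5 days before death. The paw and muscle groups thus differ at once in target tissue, in CGRP status and in where the agent and the tracer were given, and these cannot be told apart. In sorted bulk RNA, fewer cells of a type and less RNA per cell cannot be told apart either.

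All 8 markers of sensory neurons lay above the dim limit in each group, which is the 95th percentile of the levels of 1194 olfactory and vomeronasal genes, a log2 expression of 2.44. Macrophage markers were at or near the dim limit, with array means of the 8 genes from 2.11 to 2.48 and 3 to 6 of the 8 under the limit in each group. Satellite glia markers averaged 5.30 to 6.18 per array and Schwann cell markers 4.89 to 5.90, so RNA of genes used as glial markers was read in every group. Whether it came from glia was not tested. Saline paw replicate 1 stood apart from the other paw arrays. The mean level of its peptidergic markers (Tac1, Calcb, Trpv1, Gfra3 and Kit) was 6.04 against 7.23 to 7.53 on the others. Its score on principal component 1 (−22.3) fell in the range of the muscle arrays (−50.5 to −5.67), while the other paw arrays scored 32.5 to 58.1. The gene whose promoter drives the reporter was not analysed here.

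The stretch before the first annotated start of each gene is shown because cyclic AMP, which PACAP raises, acts on genes through the factor CREB. Both were taken from RefSeq on GRCm38.p6 (both of 2 members matched). Capitals mark TGACG, the half-site of the cyclic AMP response element, searched on both strands (TGACG or CGTCA). The Adcyap1 window is chr17:93198767-93199016 and the Adcyap1r1 window chr6:55451728-55451977, both on the plus strand and each 250 bases long.
Adcyap1: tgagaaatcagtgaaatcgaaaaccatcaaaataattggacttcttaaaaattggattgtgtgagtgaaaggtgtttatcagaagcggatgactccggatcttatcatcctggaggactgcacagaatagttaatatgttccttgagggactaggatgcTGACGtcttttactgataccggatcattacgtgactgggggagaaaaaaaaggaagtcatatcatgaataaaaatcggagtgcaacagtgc
Adcyap1r1: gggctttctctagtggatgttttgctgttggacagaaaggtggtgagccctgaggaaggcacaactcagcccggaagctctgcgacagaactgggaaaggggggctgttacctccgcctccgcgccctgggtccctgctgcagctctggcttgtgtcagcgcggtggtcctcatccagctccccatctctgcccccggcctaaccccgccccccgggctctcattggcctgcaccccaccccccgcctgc
The Adcyap1 window held 1 half-site, whose first base lay 91 bases before the start, and the Adcyap1r1 window held 0. Adcyap1 has 2 annotated starts. Counted from its second, not shown, the same half-site lay 242 bases before the start. Of 32851 windows of this length in the promoter table, 17.8% held at least 1. The windows also differed in base composition, with 39.6% G and C before Adcyap1 and 65.6% before Adcyap1r1. A match is a description of the letters and not of binding.

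Adcyap1 followed the neuron class. Its log2 expression in skin neurons after saline was 5.65, 6.22 and 6.85 in replicates 1, 2 and 3. In muscle neurons after saline it was 5.03, 4.23 and 4.55. Every saline paw array lay above every saline muscle array, and the nearest pair was 5.65 and 5.03. The group means were 6.24 ± 0.60 and 4.60 ± 0.41 (SD, n = 3 each), a log2 difference of 1.64 (SE 0.268) or 3.11-fold. Without saline paw replicate 1 it was 1.93. Such a separation upward was found for 8.11% of all genes in this comparison.

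After CFA the distance between the neuron classes was wider. Adcyap1 was at 7.08, 7.20 and 7.16 in CFA paw, a range far narrower than in saline paw. In CFA muscle it was at 3.65, 4.34 and 3.73. The means of 7.15 ± 0.059 and 3.91 ± 0.38 (SD, n = 3 each) differed by 3.24 (SE 0.268), or 9.46-fold. All 3 CFA paw arrays lay above all 3 CFA muscle arrays, as they did for 18.9% of genes. CFA paw and CFA muscle share no array with the saline groups, but the CFA paw arrays were part of the choice of Adcyap1. The wider distance is thus a description and no independent support.

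**Figure D1:**
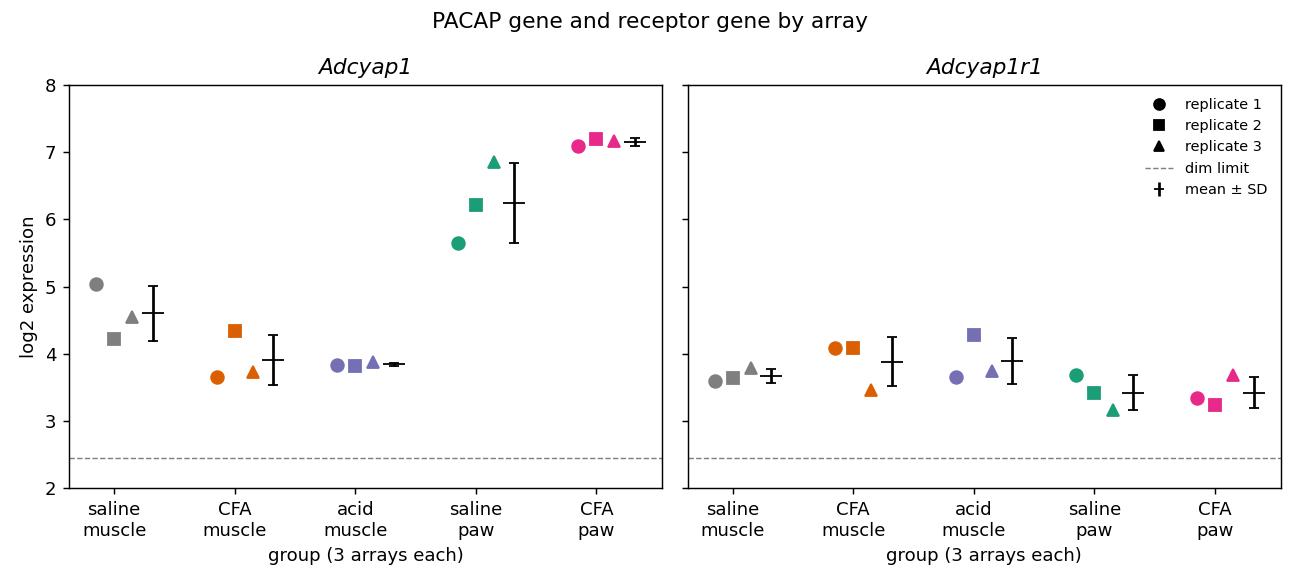
Log2 expression of Adcyap1 (left) and Adcyap1r1 (right) on each array, by group; symbols are replicates, bars the mean ± SD of 3 arrays, and the dashed line the dim limit of 2.44. The 6 paw arrays of Adcyap1 span 5.65 to 7.20 and the 9 muscle arrays 3.65 to 5.03, while Adcyap1r1 lies from 3.16 to 4.29 on all 15 arrays.

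Inflammation of the paw went with a higher Adcyap1 level in skin neurons. Each CFA paw array lay above each saline paw array, by 0.84, 0.96 and 0.92 against the saline mean. The highest saline paw array, at 6.85, came within a short distance of the lowest CFA paw array, at 7.08. The mean difference was 0.91 (SE 0.268), or 1.88-fold, and 1.73% of all genes separated upward in this way. It was 0.61 without saline paw replicate 1, whose level of 5.65 was the lowest of the paw arrays, and 1.21 without saline paw replicate 3. With weights that give unusual arrays less influence it was 0.40 (SE 0.175). These weights rested saline paw mostly on replicate 3, with a weight of 7.18 against 0.96 for replicate 2 and 0.15 for replicate 1.

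In muscle neurons the mean level of Adcyap1 was lower after either agent. CFA muscle lay 0.95, 0.26 and 0.87 below the saline muscle mean in replicates 1, 2 and 3, but CFA muscle replicate 2 (4.34) exceeded saline muscle replicate 2 (4.23), so the groups overlapped. The difference was −0.70 (SE 0.268), or 1.62-fold. Acid muscle was at 3.83, 3.82 and 3.87, below every saline muscle array. That difference was −0.76 (SE 0.268), or 1.70-fold, and 2.94% of genes separated downward in this way. The 2 comparisons share the saline muscle arrays, of which replicate 1 (5.03) was the highest. Without it the differences were −0.48 for CFA and −0.55 for acid.

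The order of the group means was CFA paw (7.15), saline paw (6.24), saline muscle (4.60), CFA muscle (3.91) and acid muscle (3.84). Arrays of neighbouring groups did not overlap from CFA paw down to saline muscle. The arrays of saline muscle and CFA muscle overlapped, as did those of CFA muscle and acid muscle, whose means differed by 0.067 against a pooled SD of 0.27. CFA thus accompanied a higher mean in skin and a lower mean in muscle neurons. The CFA effect in muscle minus that in paw was −1.60 (SE 0.380). For that contrast 0 of 19938 genes passed in limma (0%), and 325 had an unadjusted p under 0.05.

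No gene passed over all 19938 in limma for CFA paw against saline paw (0%, with 241 genes at an unadjusted p under 0.05), for CFA muscle against saline muscle (0%, 518 genes) or for acid muscle against saline muscle (0%, 568 genes). Between saline paw and saline muscle 2.04% of genes passed, and between CFA paw and CFA muscle 6.41%. The number called between saline paw and saline muscle ran from 51 without saline paw replicate 3 to 3824 without saline paw replicate 1.

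Peptidergic markers moved with Adcyap1. All 5 measured members of that list were higher in saline paw than in saline muscle (median difference 1.95) and all 5 in CFA paw than in CFA muscle (2.68), each past the threshold in limma. The paw groups were sorted CGRP-positive and the muscle groups CGRP-negative, so these calls between the classes were largely fixed by the sort. Their means per array ran from 4.86 to 5.28 in saline muscle, 4.77 to 5.05 in CFA muscle, 4.42 to 4.98 in acid muscle, 6.04 to 7.53 in saline paw and 7.28 to 7.51 in CFA paw. In CFA muscle 4 of the 5 and in acid muscle all 5 had a lower mean than in saline muscle, with medians of −0.24 and −0.30 and none past the threshold. In CFA paw all 5 had a higher mean than in saline paw (median 0.47), again with none past the threshold. Sensory neuron markers were higher in mean in CFA paw than in saline paw for 8 of 8 (median 0.21). Against saline muscle, 1 of 8 had a higher mean in CFA muscle (median −0.13) and 2 of 8 in acid muscle (median −0.045). None of these passed the threshold.

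Of 6 large myelinated neuron markers, 2 were called higher between the saline groups (list median 1.00) and 3 between the CFA groups (1.33). Of the satellite glia, macrophage, endothelial, fibroblast and skeletal muscle markers 0 were called in any comparison, and of 5 Schwann cell markers 1 was lower in CFA paw than in CFA muscle. All 6 endothelial markers had a lower mean in CFA paw than in CFA muscle (median −0.55), and 5 of 6 in saline paw than in saline muscle (−0.39). All 5 skeletal muscle markers had a lower mean in the paw group in both comparisons (medians −0.43 with saline and −0.18 with CFA). In CFA muscle all 6 fibroblast (median 0.23), 5 of 6 endothelial (0.17) and 3 of 5 Schwann cell markers (0.37) had a higher mean than in saline muscle. In acid muscle 5 of 6 fibroblast (median 0.12), 6 of 6 endothelial (0.22) and 4 of 5 Schwann cell markers (0.10) did. Whether any of these bears on the members was not tested.

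The level of Adcyap1 was also set against the mean of the 5 peptidergic markers on the same array, a scaling added after seeing the data. Between the neuron classes its pattern then changed. The sort separated the classes by CGRP status, and the markers include Tac1, the gene most like Adcyap1 (Pearson r 0.978). A smaller class difference after this scaling was thus partly fixed in advance. The scaled level was −0.52 ± 0.47 in saline muscle and −0.69 ± 0.32 in saline paw (SD, n = 3 each), so the difference between the saline groups turned to −0.17 (SE 0.39). CFA paw was at −0.24 ± 0.063 and CFA muscle at −1.03 ± 0.28 (SD, n = 3 each). The scaled difference was 0.45 (SE 0.39) for CFA in skin neurons, −0.51 (SE 0.39) for CFA in muscle neurons and −0.40 (SE 0.39) for acid. The signs of the 3 injection effects were thus the same as in the deposited values, at a smaller size. Scaled to the 8 sensory neuron markers instead, Adcyap1 was 0.52 (SE 0.324) higher in saline paw than in saline muscle and 1.75 (SE 0.324) higher in CFA paw than in CFA muscle. Its injection differences were then 0.68 for CFA in skin neurons, −0.55 for CFA in muscle neurons and −0.76 for acid (SE 0.324 each).

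**Figure D2:**
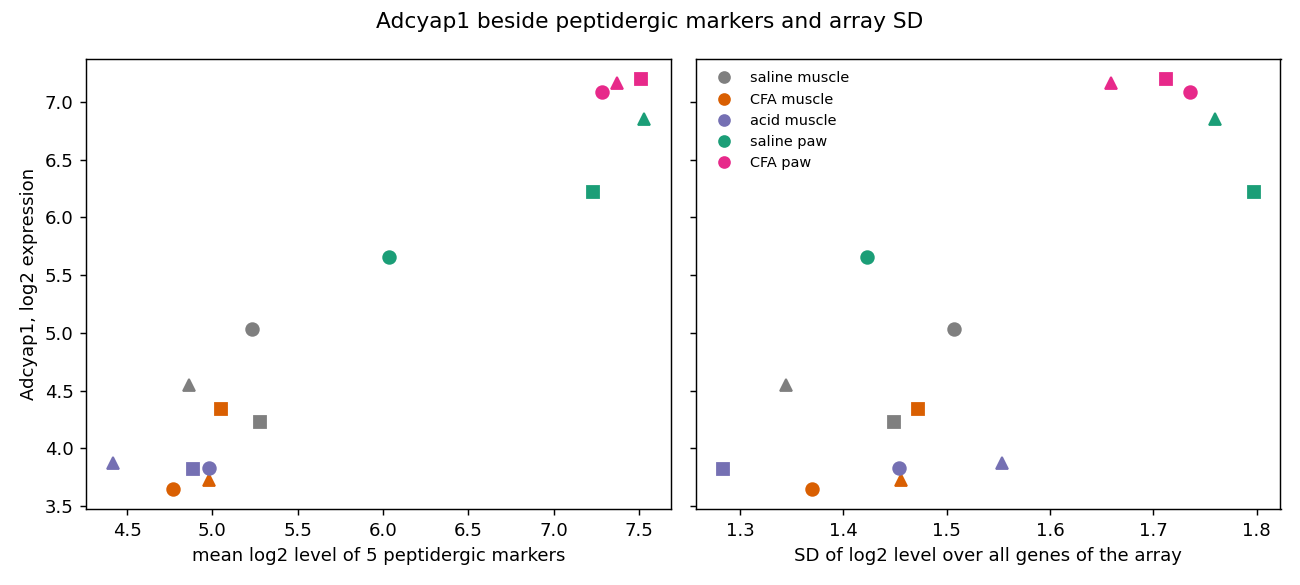
Log2 expression of Adcyap1 on each of the 15 arrays against the mean log2 level of 5 peptidergic markers (left) and against the SD of log2 levels over all genes of the array (right); colours are groups and symbols replicates. Saline paw replicate 1, at 5.65, has a marker mean of 6.04 and an array SD of 1.42, while the other paw arrays have marker means of 7.23 to 7.53.

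The spread of levels within an array moved with Adcyap1 as well. The SD over all genes was 1.66 to 1.80 on 5 of the 6 paw arrays, 1.42 on saline paw replicate 1 and 1.28 to 1.55 on the 9 muscle arrays. Adjusted for the array SD, Adcyap1 was 1.23 (SE 0.269) higher in saline paw than in saline muscle and 2.76 (SE 0.288) higher in CFA paw than in CFA muscle. Cyclic loess between arrays gave 2.93 for the latter and quantile normalization 2.82. Whether these technical measures account for any of the result was not tested.

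The receptor gene showed no such pattern. Adcyap1r1 was at 3.59, 3.64 and 3.79 in saline muscle, 4.09, 4.09 and 3.46 in CFA muscle and 3.65, 4.29 and 3.74 in acid muscle. In skin neurons it was at 3.69, 3.42 and 3.16 after saline and 3.34, 3.24 and 3.69 after CFA. All 15 arrays lay above the dim limit, and the arrays of every pair of groups compared overlapped. The limit is below the median of every array over all probe sets (2.65 to 2.92), so lying above it is weak evidence of expression. Skeletal muscle markers, with array means of 3.24 to 4.05, lay in the same range as Adcyap1r1. The order of the means was acid muscle (3.89 ± 0.34), CFA muscle (3.88 ± 0.36), saline muscle (3.67 ± 0.10), saline paw (3.42 ± 0.26) and CFA paw (3.42 ± 0.23; SD, n = 3 each), and the arrays of neighbours in that order overlapped throughout.

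Between skin and muscle neurons the mean of Adcyap1r1 was lower in skin, and neither difference passed over all genes. Between saline paw and saline muscle it differed by −0.25 (SE 0.213, 95% interval −0.71 to 0.20, limma adjusted p 0.577). Adjusted for the array SD the sign turned, to 0.092. With array weights the difference was −0.45 and passed (limma adjusted p 0.041). That fit called 7379 of the 19938 genes in this comparison, and saline paw then rested mostly on its replicate 3. Between CFA paw and CFA muscle it differed by −0.46 (95% interval −0.92 to −0.0059, unadjusted p 0.0475, limma adjusted p 0.234). Adjusted for the array SD that difference was −0.052.

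The injections left it likewise unresolved. The difference was −0.0016 for CFA in skin neurons (95% interval −0.46 to 0.45), 0.21 for CFA in muscle neurons (−0.25 to 0.66) and 0.22 for acid (−0.24 to 0.67), each with a limma adjusted p of 1. The acid value rested on replicate 2 (4.29) and was 0.019 without it. These intervals do not show that the receptor gene was unaffected, since a difference of 0.66 after CFA or 0.67 after acid lies within them. The array reads 1 summary per gene, so the PAC1 splice forms that differ in their coupling were not analysed here.

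**Figure D3:**
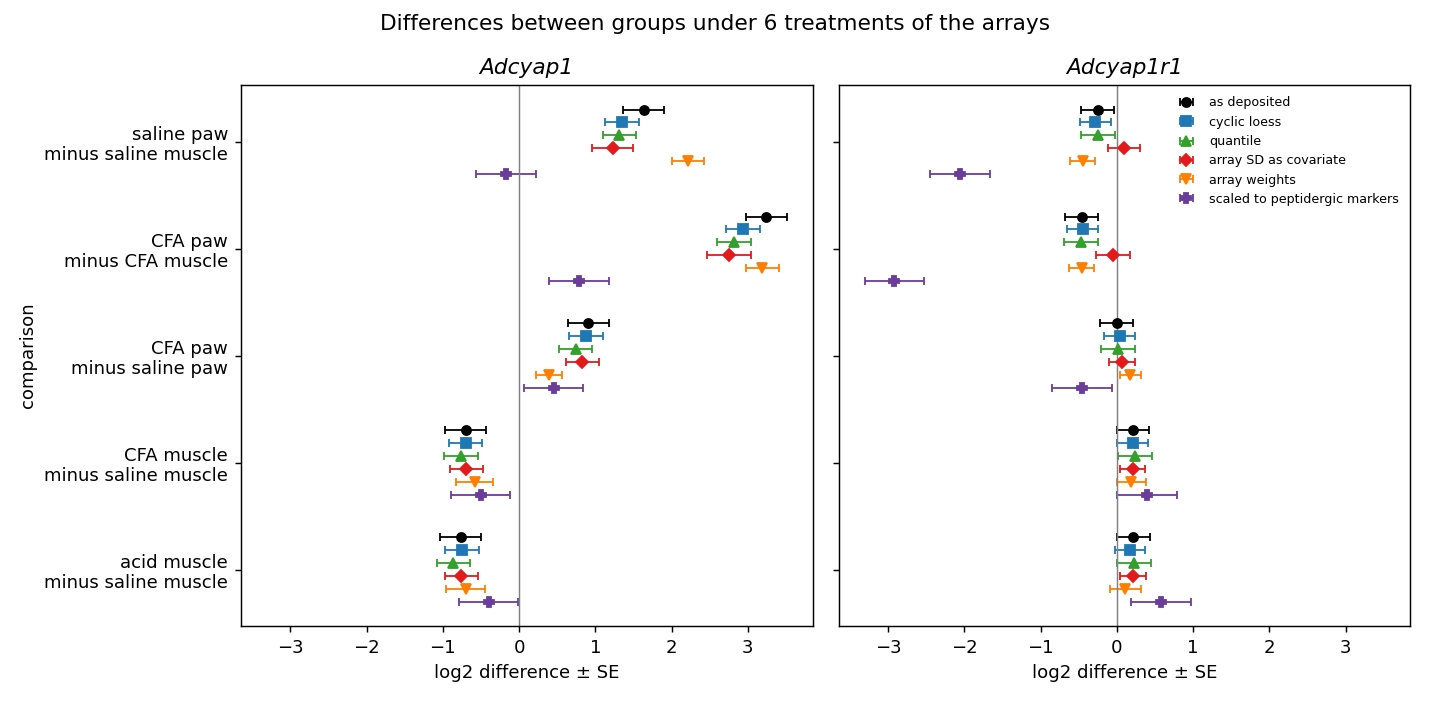
Log2 difference ± SE of Adcyap1 (left) and Adcyap1r1 (right) for 5 comparisons in the deposited values and under 5 other treatments of the arrays. The Adcyap1 differences between paw and muscle groups stay above 0 except when saline arrays are scaled to peptidergic markers (−0.17), and those of the injections in muscle stay below 0.

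Among the other ligand and receptors of the pathway, VIP stayed at background. Vip had group means from 1.62 (saline paw) to 1.99 (acid muscle), all under the dim limit, so the size of its differences is uncertain. Vipr1 was above the limit in every group, from 3.33 ± 0.35 in saline paw to 3.80 ± 0.30 in saline muscle (SD, n = 3 each), and its difference of −0.47 between them did not pass (limma adjusted p 0.267). Vipr2 lay between 2.15 (CFA paw) and 2.51 (CFA muscle), under the limit in every group but the latter. Of the 4 related ligand genes (Sct, Gcg, Ghrh and Gip) and 6 related receptor genes (Sctr, Gcgr, Ghrhr, Gipr, Glp1r and Glp2r), 0 passed in any comparison. Gcg and Gcgr were under the limit in all groups, while Ghrhr had means from 3.71 to 3.92.

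Beyond the members, 99 genes of PACAP processing, signalling and known targets were listed, of which 93 were measured. Between saline paw and saline muscle 5 of the 93 (5.38%) were higher and 0 lower, against 2.04% of all genes called. The median difference of the list was 0.055 and that of all genes −0.016. Between CFA paw and CFA muscle 18 (19.4%) were higher and 0 lower, against 6.41% of all genes, with medians of 0.062 and −0.041. These shares of all genes count 6519 genes under the dim limit. With these 6519 left out of the 19938, 564 genes were called between the saline groups, 6 of them on the list. Between the CFA groups 1407 were called, 20 of them on the list. Without the filter 407 and 1279 genes were called, so the share of all genes called was larger among the fewer genes kept. How many list genes the filter kept is not given, so these counts yield no share of the list. All 8 sensory neuron markers had a higher mean in the paw group in both comparisons. Their median difference was 1.01 between the saline groups, with 2 past the threshold, and 1.49 between the CFA groups, with 6 past it. What underlies the share of list genes called was not tested. The number of list genes called was 0 in the fit of only saline paw and saline muscle and 5 genes between the CFA groups after adjustment for the array SD. Its calls between the saline groups ran from 1 without saline paw replicate 2 or 3 or saline muscle replicate 3 to 27 without saline paw replicate 1.

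Between the saline groups the largest difference in the list was in the phospholipase C branch. Prkcb, which encodes protein kinase C beta, was 2.29 (SE 0.272) higher in saline paw than in saline muscle (6.60 ± 0.71 against 4.31 ± 0.36, SD, n = 3 each, limma adjusted p 0.00121). It was 2.47 higher in CFA paw than in CFA muscle (limma adjusted p 0.000219). Plcb1, a phospholipase C that Gq activates, was 0.88 and 0.79 higher in these comparisons (limma adjusted p 0.04 and 0.0306).

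On the cyclic AMP side Pde8b, a phosphodiesterase that breaks down cyclic AMP, was 1.35 and 1.43 higher (limma adjusted p 0.0111 and 0.00336). Crtc1, a coactivator of CREB, was 1.05 and 1.58 higher (limma adjusted p 0.0319 and 0.00127). Pde4b, another cyclic AMP phosphodiesterase, was 0.97 higher in saline paw than in saline muscle (limma adjusted p 0.0401). Prkcb, Plcb1, Pde8b and Crtc1 were thus called in both comparisons, all 4 with the same sign. They made up 80% of the 5 list genes called between the saline groups and 22.2% of the 18 called between the CFA groups. The overlap over all genes called was not counted, so these shares have no background and are no result about the pathway.

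Between the CFA groups the CREB coactivators Crtc2 (1.87) and Crebbp (1.23), the beta-arrestins Arrb1 (1.75) and Arrb2 (0.86), which end receptor signalling, and the calmodulin-dependent phosphodiesterase gene Pde1c (1.21) were higher. Pcsk1n, which encodes an inhibitor of prohormone convertase 1, was 1.71 higher, and Gal, the injury-induced peptide galanin, 2.74 higher from 2.39 in CFA muscle, under the dim limit. Their limma adjusted p ran from 0.00411 (Pde1c) to 0.00978 (Crebbp). The remaining 7 genes called had differences of 0.64 (Adcy2) to 1.42 (Pcsk1). Pcsk1, named here after its values were seen, encodes the convertase itself and was 5.44 ± 0.22 against 4.03 ± 0.41 (SD, n = 3 each). Of 10 adenylyl cyclases 1 was called between the CFA groups and 0 between the saline groups. The peptidases Dpp4 and Mme were not called.

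**Figure D4:**
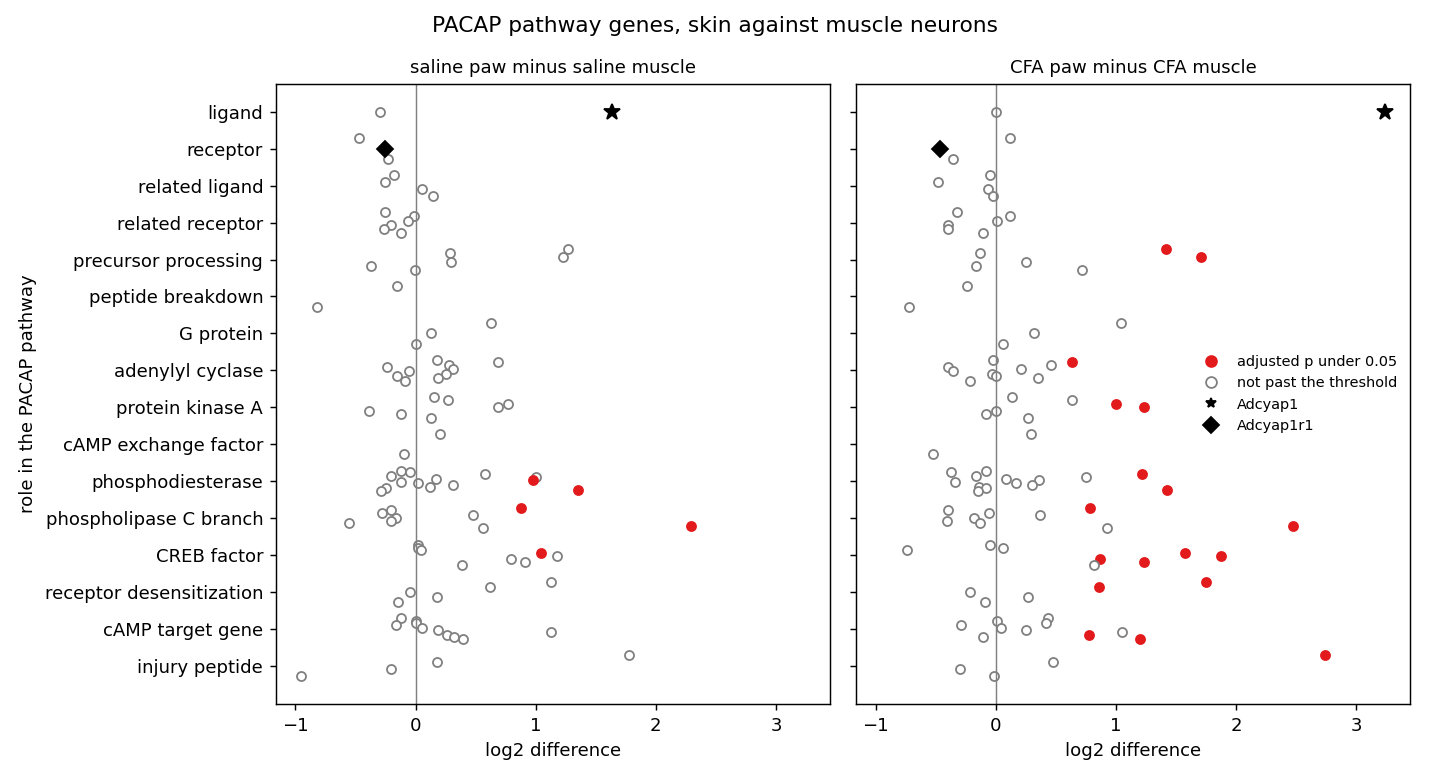
Log2 difference of each measured PACAP pathway gene between saline paw and saline muscle (left) and between CFA paw and CFA muscle (right), by role; red circles passed a limma adjusted p of 0.05 and open circles did not, and the black star (Adcyap1) and diamond (Adcyap1r1) mark the members whatever their test. The red circles all lie to the right of 0, 5 on the left panel and 18 on the right, and none is a ligand or receptor.

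No gene of the list passed after an injection. For CFA in skin neurons the smallest p belonged to Adcy6 (−0.32, SE 0.139) and the clock gene Per1 (0.42, SE 0.189), with 3 of 93 genes at an unadjusted p under 0.05. For CFA in muscle neurons they belonged to Atf1, a CREB relative (0.65, SE 0.262), and the kinase gene Sik1 (0.33, SE 0.157), with 1 of 93. For acid they belonged to the nuclear receptor genes Nr4a3 (0.42, SE 0.126, from 2.23 in saline muscle, under the dim limit) and Nr4a2 (0.72, SE 0.323), with 3 of 93. Every one of these had a limma adjusted p of 1.

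The genes whose levels ran most like Adcyap1 over the 15 arrays were Tac1 (Pearson r 0.978), Map7d1 (0.971), Npy1r (0.971), Gpx3 (0.964), Tubb4a (0.963) and Cnih2 (0.963), out of 12756 named genes above the dim limit. Tac1 encodes the precursor of substance P and Npy1r a neuropeptide Y receptor. These values describe likeness, and they share the split between paw and muscle arrays and its array SD. Tac1 had means of 8.31 in CFA paw, 7.90 in saline paw, 5.94 in saline muscle, 5.62 in CFA muscle and 5.39 in acid muscle, the same order as Adcyap1. Its step from saline to CFA in skin neurons was 0.41 (SE 0.294) where that of Adcyap1 was 0.91. With each group centred on its own mean the most similar genes were others, led by Dipk2a (0.905), Zmym5 (0.888) and Mdn1 (0.885).

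For Adcyap1r1 the most similar were Cxcl14 (0.942), Mrc2 (0.888), C2 (0.887), Actn3 (0.881), Osr2 (0.881) and Frat1 (0.878). Cxcl14, a chemokine gene, also led with groups centred (0.952), followed by Actn3 (0.949) and Fzd1 (0.935). Its group means ran from 2.50 in CFA paw to 2.96 in acid muscle, close to the dim limit. Adcyap1r1 spanned 1.12 on the log2 scale over the 15 arrays and Adcyap1 3.55.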

How the data were processed

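Log2 expression was deposited for each probe set of Affymetrix whole-transcript arrays, made from 50 ng of RNA and normalized by the authors with RMA and Partek, per the submitters' processing notes, which give no version. The log base was inferred from the range of the values. Of 35556 probe sets 21789 carried 1 gene symbol, and the probe set with the highest mean was kept per gene, which left 19938 genes. No dim gene was removed.

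A model of 5 group means was fitted to all 15 arrays with limma 3.58.1 in R 4.3.3 (10 residual and 4.32 prior degrees of freedom), and two-sided p-values were adjusted over all genes by Benjamini-Hochberg, with a threshold of 0.05. SEs are from this fit and pool the spread of all groups. Replicates are called biological in the series text, with no statement on animals. The fitting code was tested on simulated data. The number of arrays limits the precision.

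The members, the pathway and marker lists and the rules for named genes were chosen with earlier results of these data known. Named list genes are all ligands and receptors, up to 10 called genes with the smallest p, or the 2 with the smallest p where none was called. Likeness is Pearson r over the 15 arrays among 12756 named genes above the dim limit of 2.44. Array scaling, array SD, weights, the prior, probe set choice, dim filter, arrays fitted, the replicate number as a block and leaving out each array were tried as alternatives. Of the listed markers, 2 of 7 peptidergic, 3 of 8 Schwann cell and 1 of 7 large myelinated ones were not analysed here.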

Additional observations from a re-analysis of the deposited data

Results flagged for a closer look

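The CFA effect on Adcyap1 had opposite signs in the neuron classes. Every CFA paw array lay above the saline paw mean (by 0.84 to 0.96) and every CFA muscle array below the saline muscle mean (by 0.26 to 0.95). The effect in muscle minus that in paw was −1.60 (SE 0.380). The difference was not tested for this gene, since its saline muscle and paw values chose it, and 0 genes passed for this contrast in limma (325 at an unadjusted p under 0.05). The sign was not particular to Adcyap1. In this contrast 0 of 8 sensory neuron markers (median −0.31) and 0 of 5 peptidergic markers (median −0.74) were positive, with none past the threshold. Whether this bears on Adcyap1 was not tested.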

How the results depend on the processing

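Adcyap1 kept its sign in each comparison under the 10 other settings of the fit and the values and without any one array. Array weights rested saline paw mostly on its replicate 3. They moved Adcyap1 to 2.21 between the saline groups, 0.40 for CFA in skin neurons and −0.98 for the CFA effect in muscle minus that in paw. Between the CFA groups it was 2.93 under cyclic loess, 2.82 under quantile normalization and 2.76 with the array SD as covariate. Scaled to peptidergic markers (added after seeing the data) it was −0.17 between the saline groups, 0.79 between the CFA groups, 0.45 for CFA in skin neurons and −0.96 for the CFA effect in muscle minus that in paw, and scaled to sensory neuron markers 0.52 and 1.75 for the former 2.

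Adcyap1r1 between the saline groups was 0.092 with the array SD as covariate and −0.45 with array weights, and for CFA in skin neurons 0.028 after centring, 0.040 under cyclic loess, 0.017 under quantile normalization, 0.063 with the array SD, 0.18 with array weights and −0.13 to 0.13 without single arrays. Scaled to peptidergic or sensory neuron markers it was −2.06 or −1.36 between the saline groups and −2.92 or −1.95 between the CFA groups, all past the threshold; markers that are themselves higher in paw arrays enter these values.

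Genes called between the saline groups numbered 213 after centring, 0 with only the arrays compared, 7379 with array weights and 51 to 3824 without single arrays. With array weights, counts that use saline paw rest mostly on its replicate 3. Between the CFA groups they numbered 763 under quantile normalization, 444 with the array SD, 3209 with only the arrays compared, 4054 with array weights and 527 to 832 without single arrays. For CFA in skin neurons array weights gave 125, and without single arrays 0 to 8 were called for CFA in muscle and 0 to 1 for the CFA effect in muscle minus that in paw. PACAP pathway genes called between the saline groups numbered 2 after centring, 8 under cyclic loess, 0 with only the arrays compared, 40 with array weights, 3 with the replicate block and 1 to 27 without single arrays. Between the CFA groups they numbered 5 with the array SD, 30 with only the arrays compared, 33 with array weights and 9 to 13 without single arrays. The cause of these shifts was not tested. Correlations of same-numbered deviations ran from −0.50 to 0.25. They cannot show whether same-numbered samples were handled together, since array-wide differences enter them. The replicate block changed no call of a member.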
